A study of Mus musculus with 15 samples.

Results

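The cytosolic ribosomal protein genes encode the protein parts of the ribosome that translates messenger RNA outside the mitochondria. Their members were chosen by symbol, as each row of the expression table whose symbol is Rpl or Rps followed by a number and at most 1 letter a, l or x, together with the stalk genes Rplp0, Rplp1 and Rplp2 and the laminin receptor gene Rpsa. The rule found 81 of the 34714 symbols in the table. They comprise 43 genes of the large subunit, 30 of the small subunit, 3 of the stalk and 5 paralogs (Rpl3l, Rpl10l, Rpl32l, Rpl39l and Rps27l). Of these, 77 were at 1 or above in 5 libraries or more, among 12603 genes that met this filter. The 4 that did not are Rpl3l, Rpl10l, Rpl32l and Rpl39l, which are described by value only.

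RNA of the aorta was sequenced in 3 groups of 5 libraries, all from mice with the wild-type genotype. AngII + RvE1 mice were infused with angiotensin II, a pressor peptide, at a rate of 750 ng/kg/min and received resolvin E1, a lipid mediator made from eicosapentaenoic acid, by intraperitoneal injection of 2 µg/kg each day. AngII mice received the angiotensin II infusion alone. Sham mice formed the control group, and the labels give no agent for them. The labels name no strain, sex, age or duration, and they do not say that libraries came from separate animals, so a p-value here speaks only of the spread among the libraries. The series concerns resolvin E1, its receptor ChemR23, and hypertension with remodeling of the vessel wall.

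A ribosome joins a small subunit, which reads the messenger RNA, to a large subunit, which forms the peptide bond, and the P stalk of the large subunit recruits the elongation factors. Most of the proteins occur in equal number in a ribosome, and their genes are expressed together and at high level. Their messenger RNAs begin with a run of pyrimidines, the terminal oligopyrimidine (TOP) motif, through which the kinase mTOR controls their translation by way of Larp1. In the vessel wall, angiotensin II is known for driving growth and protein synthesis of smooth muscle cells, and growth of that kind needs ribosomes.

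Pyrimidine runs were looked for around the start sites that RefSeq lists on GRCm38.p6 (mm10). The 6 windows below cover 30 bases on each side of the first listed start, 5′ to 3′ on the gene's strand, with the longest run of C and T in capitals. They are shown because Rplp2 and Rps9 had the smallest p-values in AngII against Sham, Rps15 and Rps15a mark the high and the low end of the levels, and Rps27 and Rps27l are a paralog pair whose values parted.
Rplp2, chr7:141447621-141447680, plus strand: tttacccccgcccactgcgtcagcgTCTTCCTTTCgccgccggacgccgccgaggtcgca
Rps9, chr7:3704011-3704070, plus strand: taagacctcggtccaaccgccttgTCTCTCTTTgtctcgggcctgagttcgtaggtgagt
Rps15, chr10:80292401-80292460, plus strand: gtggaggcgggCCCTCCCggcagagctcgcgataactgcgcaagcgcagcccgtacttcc
Rps15a, chr7:118116118-118116177, minus strand: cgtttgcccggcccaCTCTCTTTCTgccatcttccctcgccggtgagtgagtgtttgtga
Rps27, chr3:90213619-90213678, minus strand: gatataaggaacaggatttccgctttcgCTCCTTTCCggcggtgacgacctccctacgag
Rps27l, chr9:66946056-66946115, plus strand: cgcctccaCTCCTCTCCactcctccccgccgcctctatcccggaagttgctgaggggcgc

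The run was 10 bases long in Rplp2 and Rps15a, 9 in Rps9, Rps27 and Rps27l, and 7 in Rps15. In Rplp2, Rps9 and Rps27 it covered the listed start, and in Rps15, Rps15a and Rps27l it lay upstream of it. A run upstream of the start is not part of a messenger RNA that begins there. The runs counted here, at any place in the window, thus need not be TOP motifs. The windows of Rps9 and Rps27l lay wholly inside the gene spans given below, so their first listed start was not at the edge of the span. RefSeq promoter entries were found for 57 of the 77 genes. Over these the median of the longest run was 8 bases, against 5 over the 10078 tested genes with an entry. A run of 8 or more occurred in 30 of the 57 genes (52.6%), against 21.4% of the tested genes. In the whole 300-base entry, searched on both strands, CTTTCC was found in 47.4% of the ribosomal protein genes and 26.1% of tested genes, CCGGAAG in 40.4% and 18.1%, and AAGATGGC in 7.02% and 4.70%. A match describes letters in the window and does not show a site in use.

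The tissue label was checked against markers. All 8 smooth muscle markers were expressed in each group, with a summed level of 5430 to 9775 FPKM in AngII + RvE1, 1175 to 3394 in AngII and 1751 to 12231 in Sham. FPKM is a fragment count scaled to transcript length and to the depth of the library. By the smooth muscle sum, every AngII library lay below every AngII + RvE1 library. By lymphocyte markers, AngII libraries 3, 4 and 5 stood apart. Their summed T and B lymphocyte markers (11 of 12 listed genes found) were 833, 281 and 1278 FPKM, against 4.71 to 68.9 in the other 12 libraries. By group this sum ran from 8.81 to 12.1 in AngII + RvE1, 8.07 to 1278 in AngII and 4.71 to 68.9 in Sham. Macrophage markers summed to 138 to 166 FPKM in AngII + RvE1, 134 to 2235 in AngII and 120 to 202 in Sham, and 4 cell cycle genes to 27.2 to 30.04, 26.9 to 78.3 and 27.2 to 33.3. No marker was at 0 throughout a group, and Cd3d and Cd3g were at 0 in Sham 5. Adipocyte markers summed to 6135 to 11698 FPKM in AngII + RvE1, 7676 to 15334 in AngII and 6442 to 17757 in Sham. Brown fat markers summed to 1423 to 3334, 417 to 5041 and 1095 to 5870 FPKM in the same order of groups. Sham 3 had the highest sum of both lists and AngII 3 the lowest brown fat sum. Red cell genes took 28048 to 78367 FPKM in AngII + RvE1, 7580 to 44168 in AngII and 5346 to 19674 in Sham, and their part in the values of other genes was not tested. In tissue RNA, fewer cells of a type and less RNA per cell cannot be told apart. Read depth is unknown.

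Ribosomal protein messenger RNAs were among the most abundant of the aorta, and their amount varied more within each group than between the group means. Together the 81 genes held 7.34%, 6.46%, 8.18%, 7.70% and 10.4% of the summed FPKM in AngII + RvE1 libraries 1 to 5. The share was 6.51%, 6.98%, 13.0%, 9.28% and 13.3% in AngII libraries 1 to 5, and 10.6%, 6.53%, 9.06%, 6.04% and 7.37% in Sham libraries 1 to 5. AngII 5 and AngII 3 were highest and Sham 4 lowest, Sham 1 and AngII + RvE1 5 came next, and the groups overlapped. The mean share was 8.02 ± 1.48% in AngII + RvE1, 9.82 ± 3.23% in AngII and 7.93 ± 1.90% in the Sham group (SD, n = 5 each). The summed level of the highest library was 1.95 times that of the lowest in AngII + RvE1, 2.05 times in AngII and 1.92 times in Sham.

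**Figure D1:**
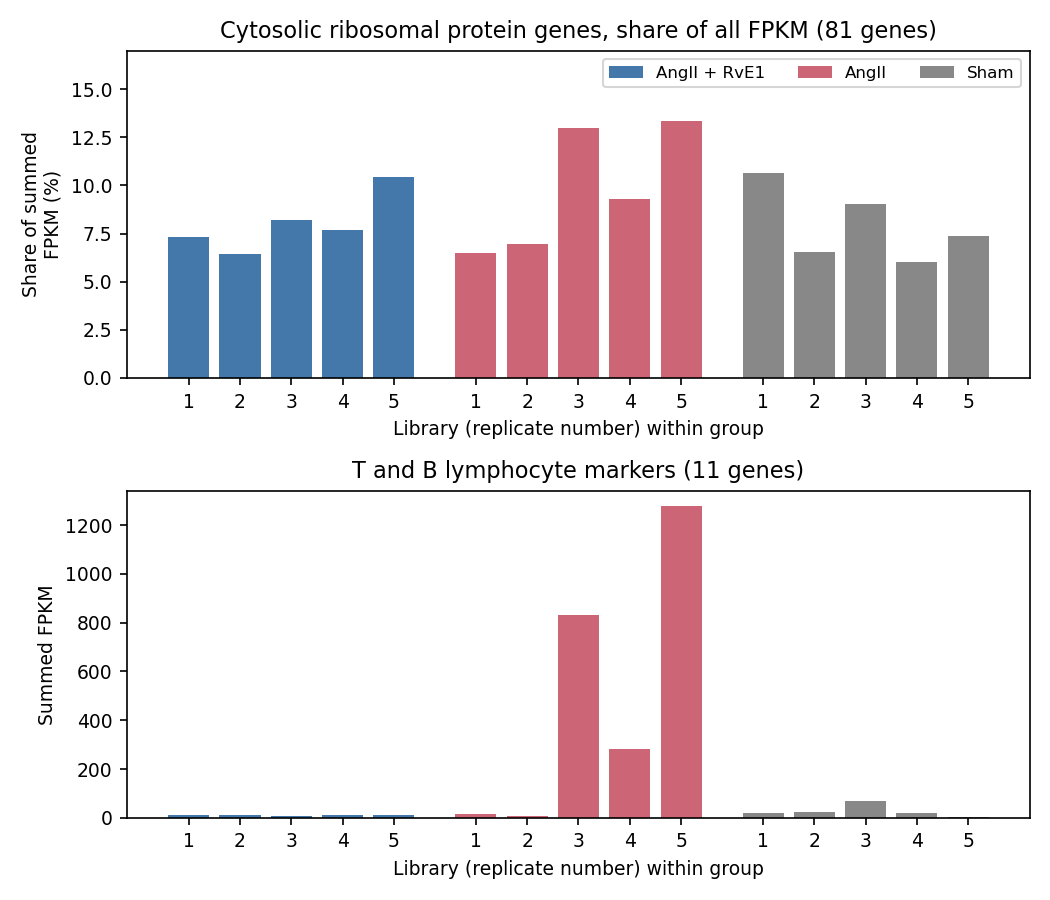
Share of the summed FPKM held by the 81 cytosolic ribosomal protein genes (upper panel, %) and summed FPKM of 11 T and B lymphocyte markers (lower panel), 1 bar per library, in AngII + RvE1, AngII and Sham. AngII 3 and AngII 5 are high in both panels, while Sham 1 and AngII + RvE1 5 have shares of 10.6% and 10.4% with lymphocyte sums of 17.8 and 12.1 FPKM.

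The lymphocyte-rich libraries were thus not the only ones with much ribosomal protein messenger RNA. Sham 1, Sham 3 and AngII + RvE1 5 had ribosomal protein sums of 46003, 45198 and 53604 FPKM with lymphocyte sums of 17.8, 68.9 and 12.1 FPKM. AngII 3, 4 and 5 had ribosomal protein sums of 59351, 40473 and 56656 FPKM. AngII 1 and 2, without the lymphocyte signal, had 28991 and 32553 FPKM, which lay inside the range of the Sham libraries (23989 to 46003). The part of the lymphocyte, macrophage, cell cycle, smooth muscle and fat signals in the group differences was not tested. The values without AngII 3, 4 and 5 are given below.

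The genes moved as a block. Each gene's level was taken as log2(FPKM + 1) less its mean over the 15 libraries. The median of this deviation over the 77 genes was -0.18, -0.44, 0.06, -0.09 and 0.54 in AngII + RvE1 1 to 5. It was -0.37, -0.18, 0.72, 0.13 and 0.65 in AngII 1 to 5, and 0.30, -0.45, 0.31, -0.65 and -0.35 in Sham 1 to 5. In AngII + RvE1 5, 77 of 77 genes stood above their own mean, and in AngII 3 and AngII 5 it was 76 of 77, while in AngII + RvE1 2, Sham 4 and Sham 5 it was 0 of 77. AngII 3 held the highest value of 36 genes, AngII 5 of 25 and AngII + RvE1 5 of 14. Sham 4 held the lowest value of 60 genes. The fold between a gene's highest and lowest library had a median of 2.68, and ran from 1.68 for Rpl24 to 3.93 for Rpl12, both large-subunit genes.

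**Figure D2:**
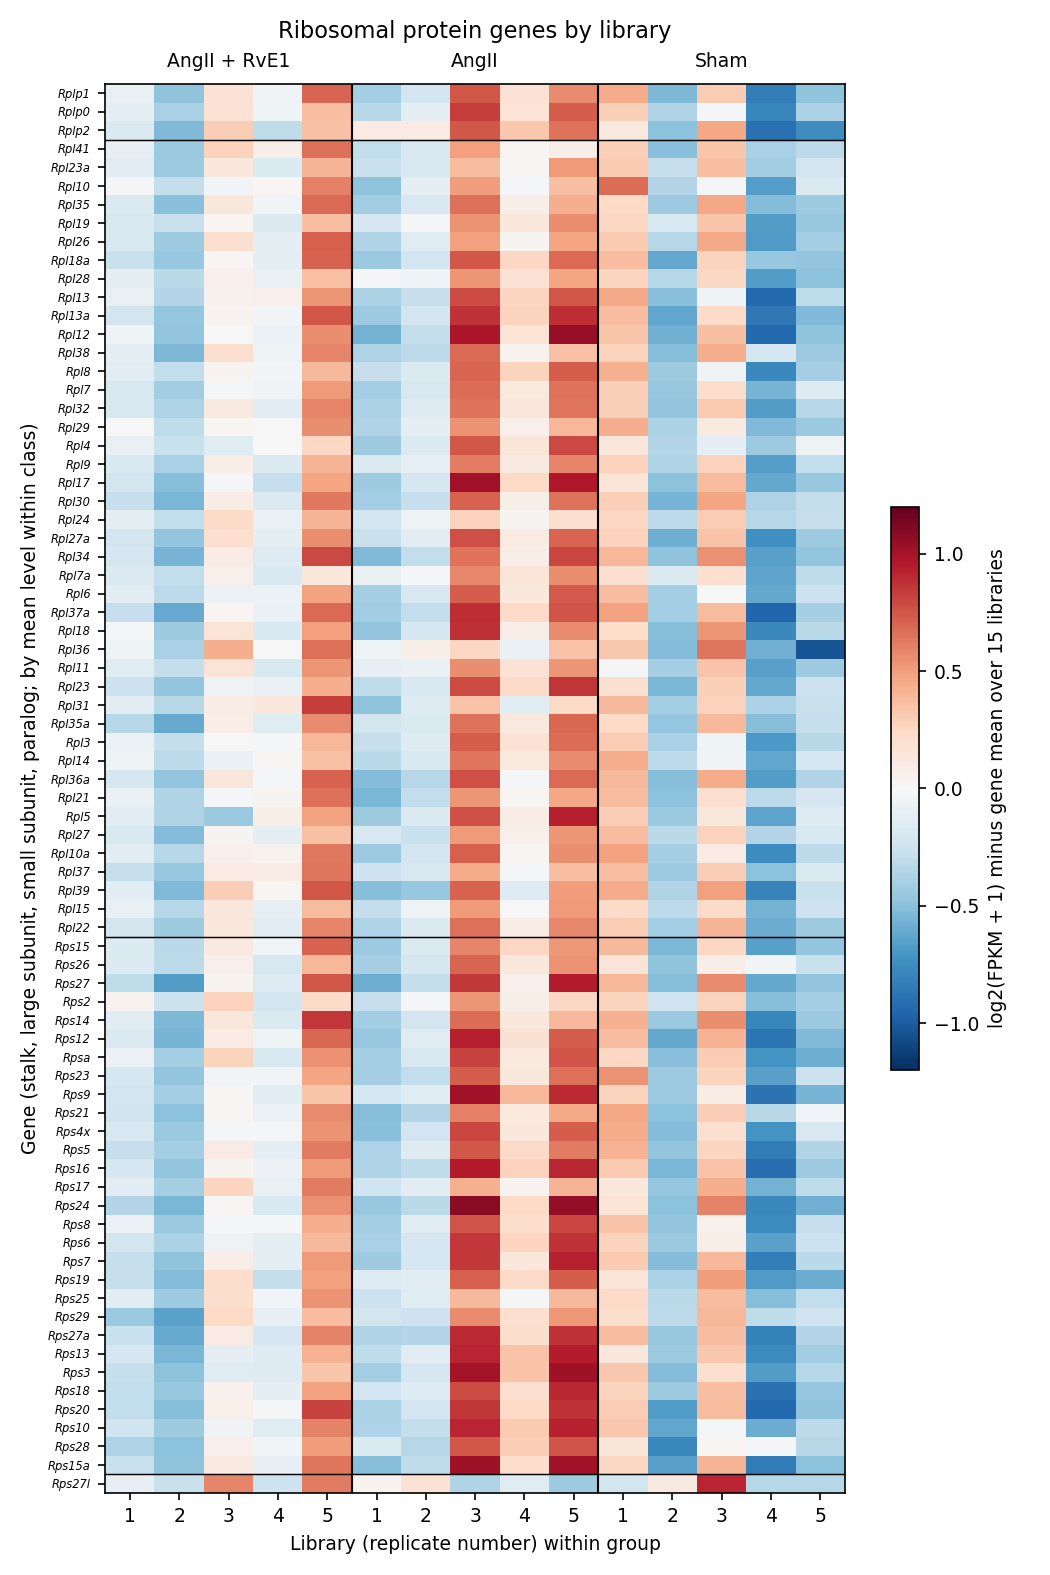
log2(FPKM + 1) of 76 of the 77 ribosomal protein genes less its mean over the 15 libraries (colour), with genes as rows grouped into stalk, large subunit, small subunit and paralog and libraries as columns. Whole columns are red (AngII + RvE1 5, AngII 3, AngII 5) or blue (Sham 4), and the last row, Rps27l, follows another pattern.

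Against each other the genes were steady. The SD of a gene's log2 level over the 15 libraries had a median of 0.44. After each library was rescaled to its own ribosomal protein genes, a step chosen after seeing the data, the median SD was 0.14. It was under 0.15 for 51 of the 77 genes and over 0.2 for 7, namely Rps27l (0.54), Rpl36 (0.30), Rplp2 (0.23), Rps28 (0.23), Rpl24 (0.21), Rpl31 (0.21) and Rps24 (0.20). The tightest were Rpl32 (0.035), Rpl22 (0.054) and Rpl7 (0.070). Since the rescaling uses the same genes, the drop in SD describes their shared movement and is no test of it. The spread left within groups (residual SD of the fit, log2) had a median of 0.44 over the 77 genes, against 0.29 over all genes tested.

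By level, the stalk gene Rplp1 was highest, with a mean of 1210 FPKM over the 15 libraries. It was followed by Rpl41 (1184), whose product is among the smallest known proteins, and Rps15 (1106). Scaling of the values to transcript length is an assumption, and the ranking of genes of unlike length depends on it. Rplp1 had 1078, 823, 1291, 1111 and 1857 FPKM in AngII + RvE1, 867, 975, 1925, 1292 and 1701 in AngII, and 1558, 791, 1414, 644 and 820 in Sham. The lowest of the core genes were Rps10 (72.4), Rps28 (63.9) and Rps15a (42.5). Rps15a had 32.3, 27.9, 42.4, 36.5 and 61.9 FPKM in AngII + RvE1, 27.2, 31.5, 80.3, 45.7 and 79.6 in AngII, and 46.8, 24.5, 52.4, 21.4 and 27.6 in Sham. The same libraries were high and low at both ends of the scale. These levels are uncertain, since 60 of the 81 genes have pseudogenes named after them in RefSeq, 307 in all, led by Rpl31 and Rps12 (23 each), and reads shared with near-identical copies may have been assigned to either.

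The first comparison asks whether infusion of angiotensin II changed these genes in the aorta. In AngII against Sham, 0 of the 77 genes were called higher and 0 lower by limma at an adjusted p under 0.05, over all 12603 genes tested. Of all genes tested, 2.36% were called higher and 0.809% lower. At an unadjusted p under 0.05, 2 of the 77 were higher (Rplp2 and Rps9) and 0 lower, against 19.7% and 6.51% of all genes. The count was 19 without AngII 1, 15 without Sham 1, 10 without AngII 2 or Sham 3, and 0 without AngII 3 or 5 or Sham 2, 4 or 5, each alone. The sign was nonetheless shared: the difference was positive for 76 of 77 genes, with a background of 64.5%, and genes that move as a block take their sign together. The median difference was 0.36 (log2) over the 77 genes and 0.11 over all genes, with a median standard error of 0.27 for a ribosomal protein gene. Median ratio rescaling, which moves the median of all genes to -0.00, left a median of 0.22 with 71 of 77 positive. In 0 of 77 genes did the AngII libraries lie wholly above or below the Sham libraries, against 2.92% and 0.778% of all genes.

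The stalk came out with a median difference of 0.51, the small subunit 0.45 and the large subunit 0.34 in AngII against Sham. Rplp2 (chr7:141447651-141451359), an acidic stalk protein, had the smallest p. It had 516, 404, 717, 472 and 745 FPKM in AngII + RvE1, 626, 623, 976, 732 and 914 in AngII, and 634, 414, 805, 313 and 348 in Sham. Its lowest AngII library lay above 3 of the Sham libraries and below the other 2. The mean was 774 ± 164 FPKM over the 5 AngII libraries and 503 ± 210 FPKM over the 5 Sham libraries (SD), and the log2 difference was 0.69, with a standard error of 0.28, a 95% interval of 0.10 to 1.29 and an adjusted p of 0.137 (limma). This adjusted p was the smallest of any ribosomal protein gene in any comparison. Rplp0, the protein that anchors the stalk, differed by 0.51 (adjusted p = 0.238), and Rplp1, the partner of Rplp2, by 0.39 (adjusted p = 0.465).

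Of the small-subunit genes, Rps9 (chr7:3703954-3706897), a core protein of that subunit's body, had the smallest p in AngII against Sham. It had 480, 420, 565, 507 and 703 FPKM in AngII + RvE1, 481, 506, 1120, 734 and 1036 in AngII, and 673, 413, 593, 302 and 378 in Sham. AngII 3 and AngII 5 were the highest of the 15, while AngII 1 and 2 lay among the Sham libraries. The difference was 0.69, with a standard error of 0.29 and an adjusted p of 0.146. Rps13 differed by 0.59 (adjusted p = 0.202), Rps10 by 0.54 (0.236) and Rps3, which lines the entry of the messenger RNA channel and also acts in DNA repair, by 0.55 (0.241). Rps6, the target of the S6 kinases downstream of mTOR, had 364, 327, 405, 393 and 557 FPKM in AngII + RvE1, 324, 369, 766, 507 and 775 in AngII, and 512, 311, 446, 271 and 354 in Sham. Its difference was 0.48 with an adjusted p of 0.274. Rpsa differed by 0.47, Rps19, the gene mutated most often in human Diamond-Blackfan anemia, by 0.48, Rps27a, which is made as a fusion with ubiquitin, by 0.43, and Rps4x by 0.34, with adjusted p-values of 0.340, 0.292, 0.414 and 0.492. The low-level genes Rps28 and Rps15a differed by 0.45 and 0.55 (adjusted p = 0.273 and 0.314), and Rps15, at the high end, by 0.36 (adjusted p = 0.466).

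Differences of large-subunit genes in AngII against Sham ran from 0.04 to 0.55, and those of small-subunit genes from 0.08 to 0.69. Rpl11 and Rpl5, which bind Mdm2 and stabilise p53 when ribosome assembly fails, differed by 0.45 and 0.40 (adjusted p = 0.223 and 0.386). Rpl11 had 305, 275, 377, 297 and 486 FPKM in AngII + RvE1, 313, 319, 495, 380 and 487 in AngII, and 332, 255, 428, 213 and 249 in Sham, and these ranges overlapped. Rpl3, near the peptidyl transferase center, differed by 0.46 (adjusted p = 0.225) and Rpl13a, known in human cells for silencing inflammatory messenger RNAs after interferon gamma, by 0.55 (adjusted p = 0.306). Rpl10a differed by 0.31, Rpl22 by 0.30, Rpl38, which is needed for Hox translation in the mouse embryo, by 0.17, and Rpl41 by 0.14, with adjusted p-values of 0.502, 0.489, 0.735 and 0.769.

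The second comparison asks whether resolvin E1 changed these genes during the infusion. It shares the AngII libraries with the first, so opposite signs in the 2 comparisons are not separate evidence. In AngII + RvE1 against AngII, 0 of 77 genes were called higher and 0 lower by limma, against 4.21% and 4.31% of all genes tested. At an unadjusted p under 0.05 the counts were also 0 and 0, against 9.85% and 19.1%. The difference was negative for 70 of the 77 genes, with a background of 64.1%, and the median was -0.22 against -0.11 over all genes. With median ratio rescaling these medians were -0.11 and -0.03, with 20 of 77 genes positive. Medians were -0.26 for the stalk, -0.28 for the small subunit and -0.19 for the large subunit. The groups were disjoint for 0 of 77 genes, against 5.87% and 5.23% of all genes.

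Rps3 (chr7:99477896-99483709) had the smallest p of the family in AngII + RvE1 against AngII. It had 147, 127, 162, 160 and 226 FPKM in AngII + RvE1, 135, 156, 359, 228 and 364 in AngII, and 225, 124, 204, 112 and 141 in Sham. AngII 3, 4 and 5 lay above each AngII + RvE1 library, and AngII 1 and 2 lay within their range. The mean was 165 ± 37.3 FPKM over the 5 AngII + RvE1 libraries and 248 ± 109 FPKM over the 5 AngII libraries (SD), and the difference was -0.50, with a standard error of 0.29, a 95% interval of -1.12 to 0.12 and an adjusted p of 0.274. Rps13, Rps9 and Rplp2 differed by -0.47, -0.47 and -0.45 (adjusted p = 0.281, 0.293 and 0.294). Rpl7a, Rpl17 and Rpl23, also among the 8 smallest p-values, had differences of -0.33, -0.43 and -0.37 (adjusted p = 0.301, 0.382 and 0.389). Differences ran from -0.50 to -0.04 over the small subunit and from -0.43 to 0.15 over the large subunit. Rplp1, Rpl38 and Rpl10a differed by -0.12, -0.07 and -0.08, and Rpl41 and Rpl36 by 0.07 and 0.03, none with an adjusted p under 0.842.

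In AngII + RvE1 against Sham, 0 of 77 genes were called higher and 0 lower by limma, against 0.0159% and 0.00793% of all genes tested, which is 2 genes and 1. At an unadjusted p under 0.05 the counts were 0 and 0, against 4.71% and 1.98%. The difference was positive for 74 of 77 genes (background 53.1%) and negative for 3 (background 46.9%), with a median of 0.14 against 0.01 over all genes, and medians of 0.25, 0.14 and 0.16 for the stalk, the small and the large subunit. With libraries rescaled to 1 common sum these overall medians were 0.02 and -0.09, with 51 of 77 positive. The groups were disjoint for 0 of 77 genes, against 0.825% and 0.262%. Rpl36 had the smallest p of the family. It had 330, 262, 465, 341 and 542 FPKM in AngII + RvE1, 330, 359, 407, 324 and 436 in AngII, and 430, 239, 535, 230 and 167 in Sham. Sham 5 held the lowest value of the 15 and Sham 3 the second highest, so the groups overlapped. The difference was 0.36, with a standard error of 0.29, a 95% interval of -0.26 to 0.99 and an adjusted p of 0.920. Rpl11, Rpl13, Rpl3, Rplp0, Rpsa, Rps15 and Rpl8, with the next smallest p-values, had differences of 0.24 to 0.30, and none an adjusted p under 0.945. Differences ran from -0.07 to 0.29 over the small subunit and from -0.04 to 0.36 over the large subunit.

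**Figure D3:**
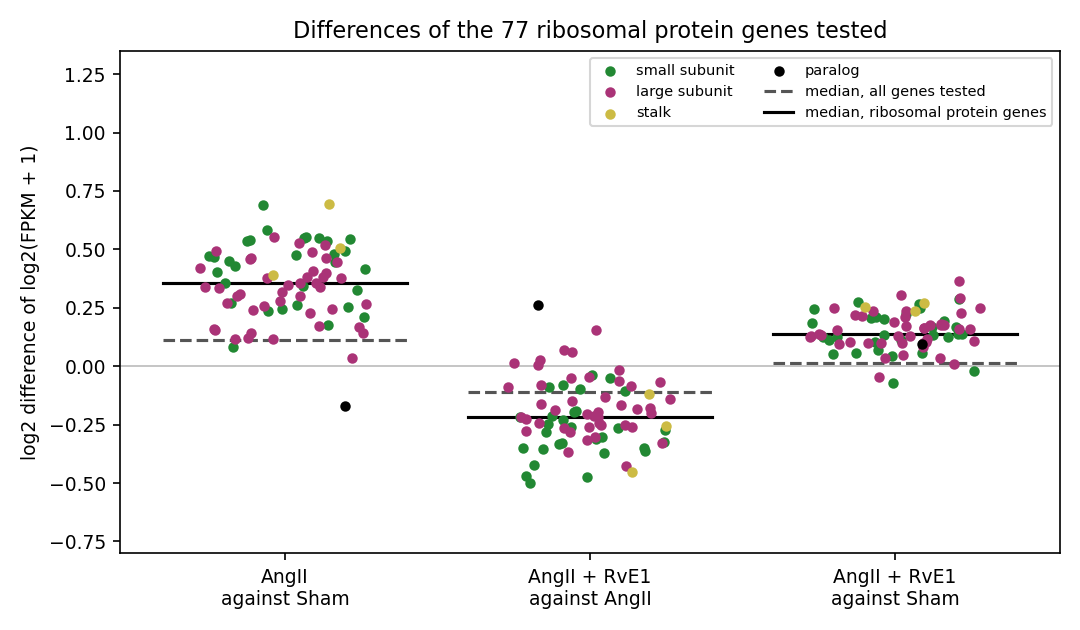
log2 difference of log2(FPKM + 1) for each of the 77 ribosomal protein genes (points, coloured by subunit) in 3 comparisons, with the median of the 77 genes (solid line) and of all 12603 genes tested (dashed line). Points lie around 0.36, -0.22 and 0.14, and the standard error of a single gene, with a median of 0.27, is not drawn.

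The medians of both comparisons with the AngII group changed sign without AngII libraries 3, 4 and 5. With these left out together, an omission chosen with earlier results of these data known, the median difference over the 77 genes was -0.10 in AngII against Sham, with 17 of 77 positive, and 0.26 in AngII + RvE1 against AngII, with 74 of 77 positive. The medians over all genes were then 0.01 and -0.00. Single libraries of the other groups mattered as well: the median for AngII + RvE1 against Sham was 0.01 without AngII + RvE1 5 and 0.28 without Sham 1.

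The balance of the subunits was also read within each library, where a movement of equal size in both subunits cancels. The summed level of the 43 large-subunit genes over that of the 30 small-subunit genes was 1.44, 1.44, 1.40, 1.46 and 1.41 in AngII + RvE1, 1.43, 1.41, 1.30, 1.33 and 1.31 in AngII, and 1.41, 1.43, 1.37, 1.44 and 1.44 in Sham. AngII 3, 4 and 5, the libraries rich in lymphocyte markers, had the 3 lowest ratios, and AngII 1 and 2 lay among the Sham libraries. In the other groups too, the libraries with the highest ribosomal protein sums had the lowest ratios: AngII + RvE1 3 and 5, and Sham 1 and 3. The ratio was thus not free of the shared movement, whose part in it was not tested. The mean was 1.43 ± 0.02 in AngII + RvE1, 1.36 ± 0.06 in AngII and 1.42 ± 0.03 in the Sham group (SD, n = 5 each). Relative to the other ribosomal protein genes, again after rescaling to them, 0 of 77 genes were called in any comparison. Their shared difference is taken out by this step, so the count speaks only of differences among these genes. Of all genes, 0.0238% were then called higher and 0.0238% lower in AngII against Sham, 1.95% and 1.29% in AngII + RvE1 against AngII, and 0.00793% and 0% in AngII + RvE1 against Sham. The largest relative differences by p were 0.36 for Rpl31 in AngII + RvE1 against AngII (adjusted p = 0.501), 0.34 for Rps9 in AngII against Sham (adjusted p = 0.472) and -0.52 for Rps27l in AngII against Sham (adjusted p = 0.516).

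**Figure D4:**
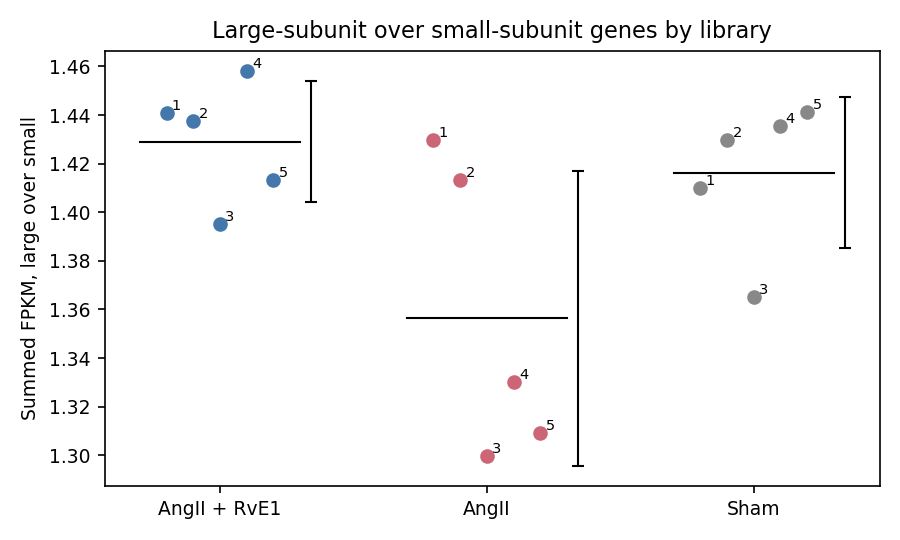
Summed FPKM of 43 large-subunit genes over summed FPKM of 30 small-subunit genes, 1 numbered point per library, with the group mean (line) and SD (bar beside it, n = 5 each). The vertical axis does not start at 0. AngII 3, 4 and 5 lie at 1.30, 1.33 and 1.31, below the other 12 libraries.

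The paralog Rps27l did not follow the core genes. Rps27l (chr9:66944624-66949522), a p53-responsive relative of Rps27, had 108, 95.7, 174, 97.2 and 178 FPKM in AngII + RvE1, 119, 130, 89.5, 104 and 85.8 in AngII, and 99.1, 125, 218, 91.0 and 90.9 in Sham. Its lowest value of the 15 was in AngII 5 and its highest in Sham 3. Rps27 (chr3:90212667-90213648) had 679, 527, 855, 752 and 1408 FPKM in AngII + RvE1, 558, 687, 1511, 874 and 1608 in AngII, and 1102, 588, 1239, 546 and 602 in Sham. Rps27 was thus highest in AngII 5 and AngII 3, where Rps27l was low, while both were high in AngII + RvE1 5 and Sham 3. Rps27l differed by -0.17 in AngII against Sham, 0.26 in AngII + RvE1 against AngII and 0.09 in AngII + RvE1 against Sham (adjusted p = 0.711, 0.531 and 0.991).

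**Figure D5:**
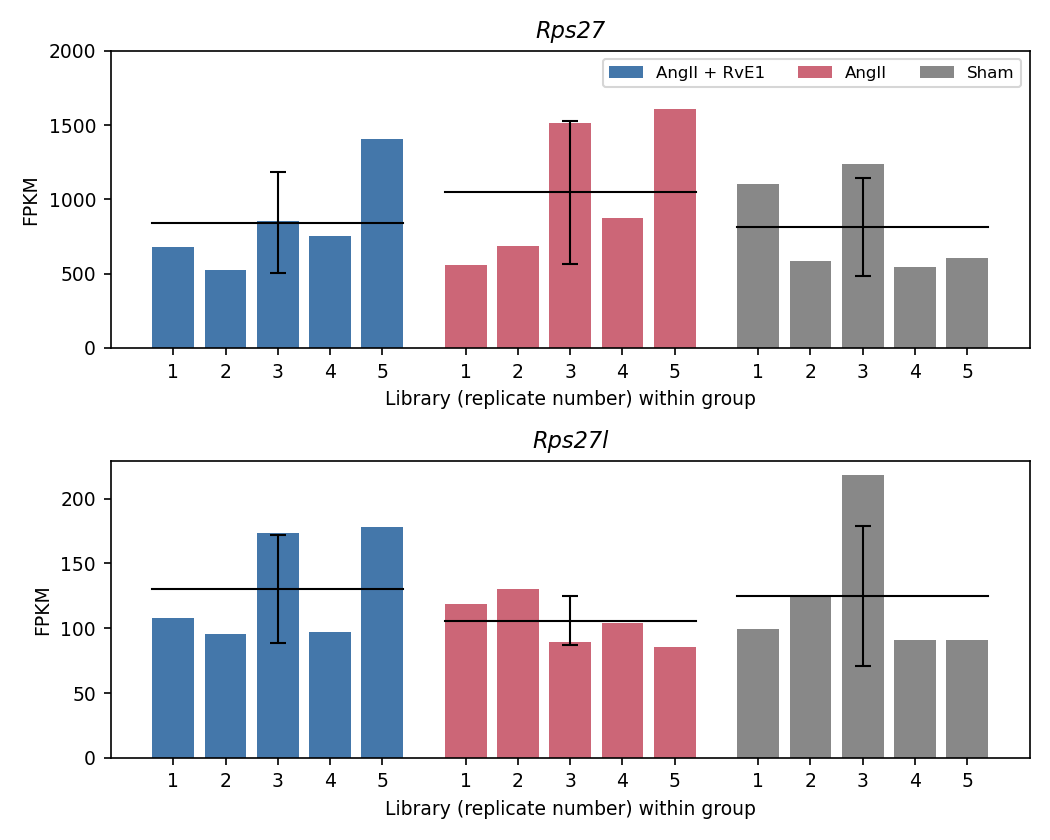
FPKM of Rps27 (upper panel) and its paralog Rps27l (lower panel), 1 bar per library in AngII + RvE1, AngII and Sham, with the group mean (line) and SD (error bar, n = 5 each). In AngII 3 and AngII 5 Rps27 is 1511 and 1608 FPKM while Rps27l is 89.5 and 85.8 FPKM.

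Rpl3l (chr17:24727826-24736143), the form of Rpl3 found in heart and skeletal muscle, had 0.531, 0.849, 0.388, 0.183 and 0.776 FPKM in AngII + RvE1, 0.109, 1.79, 0, 8.28 and 0.0365 in AngII, and 0.775, 0.115, 0.162, 0.0174 and 0.802 in Sham. AngII 4 was far above the rest. That library also had the most Acta1, skeletal muscle actin, at 549 FPKM against 0.5 to 42.4 in the other 14, and the most Ckm, muscle creatine kinase, at 272 FPKM. The 10 cardiac and skeletal muscle markers summed to 71.8 to 1124 FPKM in AngII + RvE1, 14.1 to 2044 in AngII and 43.4 to 851 in Sham, with Myh6, Myh7, Mybpc3 or Myl7 at 0 in some libraries. Their part in the Rpl3l values was not tested. Of the testis-associated paralogs, Rpl10l was listed at 0 in each library and Rpl39l reached 0.415 FPKM at most. Rpl32l reached 0.0962 FPKM at most.

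Other parts of the translation machinery were taken from lists. The 8 ribosomal proteins under other symbols, such as Rack1, Fau and Rps3a1, had 0 called genes in each comparison and medians of 0.37 in AngII against Sham, -0.18 in AngII + RvE1 against AngII and 0.13 in AngII + RvE1 against Sham. The 8 elongation factors had medians of 0.31, -0.26 and 0.04 in the same order of comparisons, with 0 called.

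Among 29 initiation factors the medians were 0.14, -0.16 and 0.00. Eif4b, a cofactor of the helicase eIF4A and a substrate of S6 kinase, was called higher in AngII against Sham by 0.66 (limma adjusted p = 0.0300) and lower in AngII + RvE1 against AngII by -0.60 (adjusted p = 0.0268). It had 41.1, 37.2, 39.0, 38.7 and 47.2 FPKM in AngII + RvE1, 49.2, 49.98, 73.3, 65.6 and 75.6 in AngII, and 47.0, 34.9, 32.6, 38.2 and 41.7 in Sham. Each AngII library lay above each Sham and each AngII + RvE1 library, and AngII 3, 4 and 5 were the highest. In AngII + RvE1 against AngII, Eif4a2 was also called lower (-0.41, adjusted p = 0.0376) and Eif1ax higher (0.38, adjusted p = 0.0409). The 29 factors thus had 1 called higher and 2 lower there, against 4.21% and 4.31% of all genes tested. In AngII against Sham it was 1 higher and 0 lower, against 2.36% and 0.809%.

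The 10 other TOP messenger RNAs had medians of 0.39, -0.30 and 0.07. In AngII + RvE1 against AngII, Pabpc1, the poly(A)-binding protein, was called lower (-0.66, adjusted p = 0.0266) and Vim, the intermediate filament of mesenchymal cells, higher (1.07, adjusted p = 0.0409). In that comparison 4.21% of all genes tested were called higher and 4.31% lower, which is the background for this list and the next. The 27 ribosome biogenesis genes had medians of 0.29, -0.35 and -0.05, and 3 of them were called lower in AngII + RvE1 against AngII: Rrs1 (-0.67, adjusted p = 0.0205), Pes1 (-0.44, adjusted p = 0.0268) and Nop2 (-0.54, adjusted p = 0.0283). These calls in AngII + RvE1 against AngII were lost for all 8 of these genes when AngII 3, 4 and 5 were left out together, and also without AngII 5, AngII + RvE1 1, AngII + RvE1 4 or AngII + RvE1 5 alone. All 8 were lost as well after rescaling to the ribosomal protein genes. They were lost for 7 of the 8 under the replicate block or without AngII 3, and for 6 without AngII 4. For 5 they were lost without AngII + RvE1 3 or with libraries rescaled to 1 common sum, and for 3 without the filter. For 2 they were lost without Sham 2 or AngII + RvE1 2, and for 1 without Sham 4 or with median ratio rescaling. The Eif4b call in AngII against Sham was lost without AngII 3, 4 or 5 (together or singly) and without Sham 2 or Sham 5 alone. That call was also lost under the replicate block and the fit of only the groups compared. The rescaling to 1 common sum and the rescaling to the ribosomal protein genes lost it too.

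The 78 mitochondrial ribosomal protein genes, which serve the separate ribosome of that organelle, did not share the movement of the cytosolic genes. Their median deviation was -0.07, -0.05, 0.35, -0.43 and 0.06 in AngII + RvE1, 0.33, 0.13, -0.41, 0.03 and -0.18 in AngII, and -0.39, 0.23, 0.63, -0.12 and -0.23 in Sham. AngII 3, the library in which the cytosolic genes were highest, was among the lowest here. Their medians were -0.06 in AngII against Sham, -0.02 in AngII + RvE1 against AngII and -0.04 in AngII + RvE1 against Sham, with 0 called in each. The 10 genes of mTOR signaling and ribosomal protein feedback, among them Mtor, Larp1 and Mdm2, had medians of 0.07, -0.22 and -0.05 with 0 called.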

How the data were processed

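Aorta RNA of 15 mouse libraries was measured, with libraries made by a SMARTer mRNA kit per the labels' protocols. The authors deposited 1 normalised value per gene and library, whose unit the file does not name. The deposited values were treated as FPKM, because they have decimals, library sums are unequal (385846 to 514281), and median values fall with transcript length above 300 bases. The lowest values do not scale with length, so scaling to length remains an assumption. The submitters' processing notes name mm10. The aligner, the quantifier and the annotation are not given in the sources used. Read depth is unknown and counting intervals are therefore not given; between 11466 and 12996 genes reached 1 in a library.

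Genes at 1 or more in at least 5 libraries were tested on log2(FPKM + 1), which understates changes of low genes, with limma-trend (limma 3.58.1, R 4.3.3). The fit had 1 mean per group over 15 libraries, 3 two-sided contrasts, and Benjamini-Hochberg adjustment over 12603 genes, and it was tested on simulated data. A log2 difference is a difference of group means of log2(FPKM + 1). Genes were named by this rule: the 8 smallest p-values of each comparison, a fixed set of well-known members and paralogs, and the 3 highest and 3 lowest levels; in the comparisons with AngII + RvE1, some of the fixed set are covered by subunit ranges only. Other names (such as Rpl12, Rpl24, Rpl7 and Rps24) were chosen after their values were seen. Some genes are not reported here by name, though they count in the totals. Members, lists and rules were chosen with earlier results of these data known. The labels do not say that replicate numbers pair the samples, and the main fit used no pairing. Of 15 same-numbered pairs between groups, 4 had deviations correlated over 0.1, with a range of -0.41 to 0.52. The mean correlation of the other pairs between groups was 0.012. These correlations cannot show whether a number marks a shared animal, batch or day. Alternatives were an added value of 0.1, no filter, only the groups compared, a replicate block, 2 rescalings, each library left out, AngII 3, 4 and 5 left out together, and, chosen after seeing the data, rescaling to the ribosomal protein genes. Promoter sequences are from RefSeq (GRCm38.p6), and protein sequences were not used here.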

Additional observations from a re-analysis of the deposited data

Results flagged for a closer look

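Of 111 groups of 5 libraries tested for a library far from the others, 2 passed the critical gap of 0.71 of the group's range, while chance alone gives about 1 in 20. Rpl3l was 8.28 FPKM in AngII 4, with a gap of 0.783 of the range to the next AngII library, which had 1.79 FPKM. Rps27l was 218 FPKM in Sham 3, with a gap of 0.734 of the range to the next Sham library, which had 125 FPKM. Sham 3 also had the highest median deviation of the 78 mitochondrial ribosomal protein genes, 0.63.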

How the results depend on the processing

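In each alternative run, 0 of the 77 ribosomal protein genes were called in either direction in each of the 3 comparisons. The run rescaled to these same genes takes out their shared difference, so its count is no test of that difference. With each library left out in turn the median difference kept its sign, at 0.24 to 0.50 in AngII against Sham, -0.35 to -0.087 in AngII + RvE1 against AngII, and 0.0085 to 0.28 in AngII + RvE1 against Sham. Counts at an unadjusted p under 0.05 then ran from 0 to 19, 0 to 2 and 0 to 1 genes in the same order. With AngII 3, 4 and 5 left out together the median was -0.099 in AngII against Sham and 0.26 in AngII + RvE1 against AngII, and the cause was not tested. The replicate block left 0 genes called and 6, 0 and 0 at an unadjusted p under 0.05. It changed no call of a ribosomal protein gene, and the labels do not say what a shared number means. Over all genes, the calls in AngII against Sham, 298 higher and 102 lower, were 30 and 7 in the fit of only these groups, 72 and 37 with the replicate block, 122 and 29 without the filter, 259 and 282 with median ratio rescaling, 44 and 29 with 1 common sum, 18 and 2 without AngII 3, 4 and 5, 3 and 3 after rescaling to the ribosomal protein genes, and 57 to 1356 and 16 to 558 with 1 library left out. In AngII + RvE1 against AngII, 531 higher and 543 lower became 851 and 489 in the fit of only these groups, 269 and 164 with the block, 213 and 192 without the filter, 819 and 479 with median ratio rescaling, 314 and 348 with 1 common sum, 0 and 1 without AngII 3, 4 and 5, 246 and 162 after rescaling to the ribosomal protein genes, and 44 to 833 and 51 to 1292 with 1 library left out. In AngII + RvE1 against Sham, 2 and 1 were 0 to 4 in each alternative. The single differences below were not called in any fit and changed sign. The largest number, 40 of 77 named differences, did so with AngII 3, 4 and 5 left out together. With AngII 3, 4 and 5 left out together, the sign in AngII against Sham turned for Rps10 -0.082, Rps3 -0.10, Rplp1 -0.10, Rpsa -0.044, Rps6 -0.093, Rps27a -0.18, Rps4x -0.20, Rpl5 -0.14, Rpl10a -0.15, Rpl13a -0.051, Rpl22 -0.13, Rpl38 -0.25, Rps27l 0.083, Rpl41 -0.12, Rps15 -0.10, Rps28 -0.059 and Rps15a -0.14. With AngII 3, 4 and 5 left out together, the sign in AngII + RvE1 against AngII turned for Rps3 0.16, Rps13 0.10, Rps9 0.10, Rpl17 0.20, Rpl23 0.16, Rplp0 0.22, Rplp1 0.37, Rpsa 0.32, Rps6 0.22, Rps19 0.073, Rps27a 0.28, Rps4x 0.34, Rpl3 0.22, Rpl5 0.22, Rpl11 0.11, Rpl10a 0.38, Rpl13a 0.34, Rpl22 0.26, Rpl38 0.35, Rps15 0.37, Rps10 0.28, Rps28 0.18 and Rps15a 0.39. Rescaling to the ribosomal protein genes takes out their own shared difference. Sign changes under it are therefore built in for part of these genes and are no test of a single gene. After rescaling to the ribosomal protein genes, the sign in AngII against Sham turned for Rps4x -0.011, Rpl10a -0.046, Rpl22 -0.051, Rpl38 -0.19 and Rpl41 -0.21. After rescaling to the ribosomal protein genes, the sign in AngII + RvE1 against AngII turned for Rplp1 0.087, Rpsa 0.016, Rpl11 0.0077, Rpl10a 0.13, Rpl22 0.038, Rpl38 0.14 and Rps15 0.12. After rescaling to the ribosomal protein genes, the sign in AngII + RvE1 against Sham turned for Rps3 -0.091, Rps6 -0.023, Rps19 -0.020, Rps27a -0.045, Rps4x -0.015, Rpl5 -0.064, Rpl22 -0.013, Rpl38 -0.048, Rps27l -0.053 and Rps28 -0.021. With libraries rescaled to 1 common sum, the sign in AngII + RvE1 against Sham turned for Rps3 -0.066, Rps27a -0.021, Rpl5 -0.040, Rpl38 -0.023 and Rps27l -0.028. With median ratio rescaling, the sign in AngII + RvE1 against AngII turned for Rpl10a 0.025, Rpl38 0.038 and Rps15 0.014. With 1 library left out at a time, the sign in AngII against Sham turned at least once for Rps27l -0.26 to 0.053. With 1 library left out at a time, the sign in AngII + RvE1 against AngII turned at least once for Rplp1 -0.28 to 0.025, Rpl10a -0.22 to 0.069, Rpl38 -0.21 to 0.085, Rpl41 -0.071 to 0.21 and Rps15 -0.25 to 0.019. With 1 library left out at a time, the sign in AngII + RvE1 against Sham turned at least once for Rps3 -0.065 to 0.19, Rps19 -0.015 to 0.30, Rps27a -0.066 to 0.24, Rps4x -0.0087 to 0.28, Rpl5 -0.058 to 0.20, Rpl22 -0.016 to 0.27, Rpl38 -0.044 to 0.24, Rps27l -0.032 to 0.32 and Rps28 -0.021 to 0.23.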
